A study of Mus musculus with 6 samples.

Results

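Mitochondrial ribosomal proteins are the nuclear-encoded protein parts of the mitoribosome, and their genes carry the symbols Mrpl (large subunit) and Mrps (small subunit). Genes were taken as members when their symbol matched either pattern, was not that of a pseudogene, and had 10 or more reads in at least 3 of the 6 libraries. All 78 genes of the files that matched by symbol met that minimum, 49 of the large and 29 of the small subunit, out of 49315 genes in the files, and all 78 were among the 17185 genes tested. The libraries came from the cerebral cortex of wild type mice, 3 from mice given AAV-PHP.eB-Gfap-GFP-shFABP7 (shFabp7) and 3 from mice given AAV-PHP.eB-Gfap-GFP-shScr (shScr), the scrambled control. AAV-PHP.eB is a viral capsid that reaches the mouse brain from the blood, and the Gfap promoter directs the shRNA chiefly to astrocytes, so that most cells in the tissue were not the intended target. Per the labels' protocols, all mice received the vector at 21 days of age and lipopolysaccharide (LPS, an inflammatory agent from bacterial outer membranes) at 1 mg/kg once a week for 3 weeks from 4 months of age. Cortex was collected 24 h later than the final injection, and both groups therefore carried the vector and LPS. Whether the 3 samples of a group were different animals is not in the labels, and p-values cover only the spread seen among them, which may be technical.

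The mitoribosome translates the few mRNAs that mitochondrial DNA encodes, all of them for membrane subunits of the respiratory chain and ATP synthase. Its rRNAs come from mitochondrial DNA, while its proteins are made in the cytosol and imported, so the particle needs the products of both genomes. Some of the proteins have bacterial counterparts, and others are found only in mitochondria. Several symbols mislead: Mrps30 and Mrps18a encode proteins of the large subunit of the mammalian particle (mL65 and mL66), and Mrps36 encodes a component of the oxoglutarate dehydrogenase complex rather than a ribosomal protein. Neurons rely on oxidative phosphorylation, and defects of several of these proteins cause heart and brain disease in humans.

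The promoters of the members are shown because these genes lie apart in the genome, on 17 chromosomes, and are known for sharing binding motifs of a few general transcription factors. Promoter windows from 250 bases before to 50 bases after the start were found for 69 members in the RefSeq table (build GRCm38.p6). Motifs were searched on both strands as GCGCA, any 1 base and GCGC for NRF1, CCGGAAGT for ETS factors such as GABPA, and AAGATGGCG for YY1, and no match of 1 motif overlapped a match of another. The NRF1 letters were in the windows of 13 members (18.8%), against 10.1% of 12183 tested genes with a window. The ETS letters were in 12 (17.4%, against 7.97%) and the YY1 letters in 8 (11.6%, against 3.07%). At least 1 of the 3 was in 31 members (44.9%), against 19.5% of tested genes. These shares are descriptions, and a match is not evidence of binding. Mrpl45, which helps tether the particle to the inner membrane near the exit tunnel, is shown for its 3 NRF1 matches. Mrps27, a small subunit protein with RNA-binding repeats, is shown for an ETS match (reverse strand) and a YY1 match. Mrps18b is shown because, by the positions given with the counts, it starts 45 bases from a gene that differed between the groups. Its window held no match. Capitals mark the matches, and each sequence is on the strand of its gene, chr11:97315466-97315765 (plus), chr13:99344536-99344835 (plus) and chr17:35916391-35916690 (minus).
Mrpl45: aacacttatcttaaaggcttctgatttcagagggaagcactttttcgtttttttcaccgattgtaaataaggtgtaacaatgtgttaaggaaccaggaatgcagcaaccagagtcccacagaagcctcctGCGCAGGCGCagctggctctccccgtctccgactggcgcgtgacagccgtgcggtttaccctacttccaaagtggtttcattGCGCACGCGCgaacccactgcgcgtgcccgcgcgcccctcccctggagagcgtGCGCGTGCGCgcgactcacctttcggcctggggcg
Mrps27: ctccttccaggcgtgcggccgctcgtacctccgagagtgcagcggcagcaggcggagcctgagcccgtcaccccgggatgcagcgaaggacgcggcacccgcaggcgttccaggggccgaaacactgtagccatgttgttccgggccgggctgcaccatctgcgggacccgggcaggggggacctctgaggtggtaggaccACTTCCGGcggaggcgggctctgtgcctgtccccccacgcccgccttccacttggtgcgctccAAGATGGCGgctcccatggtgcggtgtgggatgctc
Mrps18b: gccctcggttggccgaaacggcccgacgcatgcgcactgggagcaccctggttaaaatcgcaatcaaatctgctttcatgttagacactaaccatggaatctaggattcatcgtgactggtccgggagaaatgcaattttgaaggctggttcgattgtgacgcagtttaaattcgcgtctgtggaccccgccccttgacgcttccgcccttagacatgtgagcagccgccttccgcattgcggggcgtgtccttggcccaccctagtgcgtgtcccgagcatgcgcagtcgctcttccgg

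Library totals ranged from 16914012 to 18991235 counts, of which 30226 to 34620 fell in the 78 members (0.175% to 0.191%). Fabp7, the targeted gene, had 5.56, 2.49 and 3.52 CPM (counts scaled to library size with TMM factors) in shFabp7 libraries 1 to 3, against 26.3, 15.2 and 15.8 CPM in shScr libraries 1 to 3, and edgeR's quasi-likelihood test gave a log2 fold change of -2.31 (SE 0.35) and an adjusted p of 0.0704, above the threshold of 0.05, while DESeq2 gave an adjusted p of 3.41e-12. Markers of cortical excitatory neurons (15 of 15 tested, among them Slc17a7) had a mean log2 CPM of 7.07 to 7.17 in shFabp7 and 6.19 to 6.98 in shScr, so the groups did not overlap. Microglial markers (10 of 10) had 5.10 to 5.26 in shFabp7 and 5.33 to 5.42 in shScr, also without overlap. Astrocyte markers (10 of 10) had 7.45 to 7.55 in shFabp7 and 7.53 to 7.63 in shScr, with overlap. Of these, 4 were lower and 3 higher at an unadjusted p under 0.05 in edgeR, against 16.8% of all genes tested. DESeq2 called 1 of them. In bulk tissue, fewer cells of a type and less RNA per cell cannot be told apart. Marker lists of hippocampus, striatum, thalamus and hypothalamus, and choroid plexus varied between libraries, with thalamic and hypothalamic markers summing to 26.8 to 29.4 CPM in shFabp7 and 31.2 to 106 CPM in shScr, highest in shScr library 1. Hippocampal markers summed to 145.2, 124.7 and 145.4 CPM in shFabp7 libraries, against 257.5, 140.5 and 272.8 CPM in shScr libraries. Median log2 fold changes (shFabp7 over shScr) were -0.56 for hippocampal markers (7 of 8 below 0) and -0.10 for striatal (5 of 8). They were -1.71 for thalamic and hypothalamic (5 of 6) and -0.58 for choroid plexus markers (5 of 5). By Xist against Y-linked genes, 2 of 3 shFabp7 and 1 of 3 shScr libraries were female.

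Summed mRNA levels of the members, taken by symbol, overlapped between the groups for both subunits, and no single member passed the test. Only mRNA of bulk cortex was measured, not the particle or its proteins. Summed over the 49 large subunit genes, levels were 1203, 1200 and 1140 CPM in shFabp7 libraries 1 to 3, against 1168, 1148 and 1213 CPM in shScr libraries 1 to 3. The groups overlapped, with the lowest and the highest sum in library 3 of either group. The 29 small subunit genes summed to 671, 638.6 and 637.3 CPM in shFabp7, against 645.9, 639.7 and 676.7 CPM in shScr, again with overlap. The ratio of the large to the small sum was 1.79, 1.88 and 1.79 in shFabp7 libraries and 1.81, 1.79 and 1.79 in shScr libraries. The median log2 fold change (shFabp7 over shScr) was 0.001 for the large subunit, with 24 of 49 below 0, and 0.000 for the small subunit, with 14 of 29 below 0. Over all genes tested it was -0.006, with 51.5% below 0. With the excitatory neuron score as a covariate the medians were -0.027 for the large and -0.004 for the small subunit.

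In edgeR's quasi-likelihood test with Benjamini-Hochberg adjustment over all genes, 0 of 49 large and 0 of 29 small subunit genes were called, where 20 of 17185 genes were (0.116%), 0.0582% lower and 0.0582% higher in shFabp7. DESeq2, with 4.11% of its genes called, and limma-voom also called 0 of the 78. At an unadjusted p under 0.05, 2 large subunit genes were higher, and 1 large and 1 small subunit gene were lower, 4 of 78 (5.13%) against 16.8% of all genes tested (8.32% lower and 8.44% higher). Groups did not overlap for 9 members that were lower and 5 that were higher in shFabp7, where 11.5% of all genes were lower and 11.4% higher without overlap. The spread of the members' log2 fold changes was narrow, with an SD of 0.12 over the 78 members and 0.37 over all genes tested, at a median SE of 0.10 and 0.12. The members' 5 to 95% range was -0.23 to 0.17. It was -0.09 to 0.10 for nuclear subunits of oxidative phosphorylation and -0.22 to -0.03 for cytosolic ribosomal protein genes.

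A missed threshold does not show equality, so the 95% intervals of the log2 fold changes were read against a 1.5-fold change in either direction (0.58 on the log2 scale). For 75 of 78 members (96.2%) the whole interval lay inside that bound, against 61.3% of all genes tested. The share was also high in related lists, at 100% for nuclear subunits of oxidative phosphorylation and 97.5% for cytosolic ribosomal protein genes. Among the 8 related lists the lowest share was 76.9%, for the mRNAs of mitochondrial DNA. The intervals are not adjusted for the number of genes and use the spread that edgeR pools across genes. The 3 members whose intervals reached past it were Mrpl1, from -0.60 to 0.09, Mrps30, from -0.59 to 0.03, and Mrpl53, from -1.30 to 0.62. Mrpl53 was the weakest member, with 16, 9 and 11 reads in shFabp7 libraries, against 9, 23 and 17 in shScr libraries, and it shared 88% of its exon bases with Gm42688 on the same strand, so its level is uncertain. Its log2 fold change of -0.34 was -0.63 without library 1 of either group, -0.20 without shFabp7 library 2 and -0.026 without shScr library 2.

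**Figure D1:**
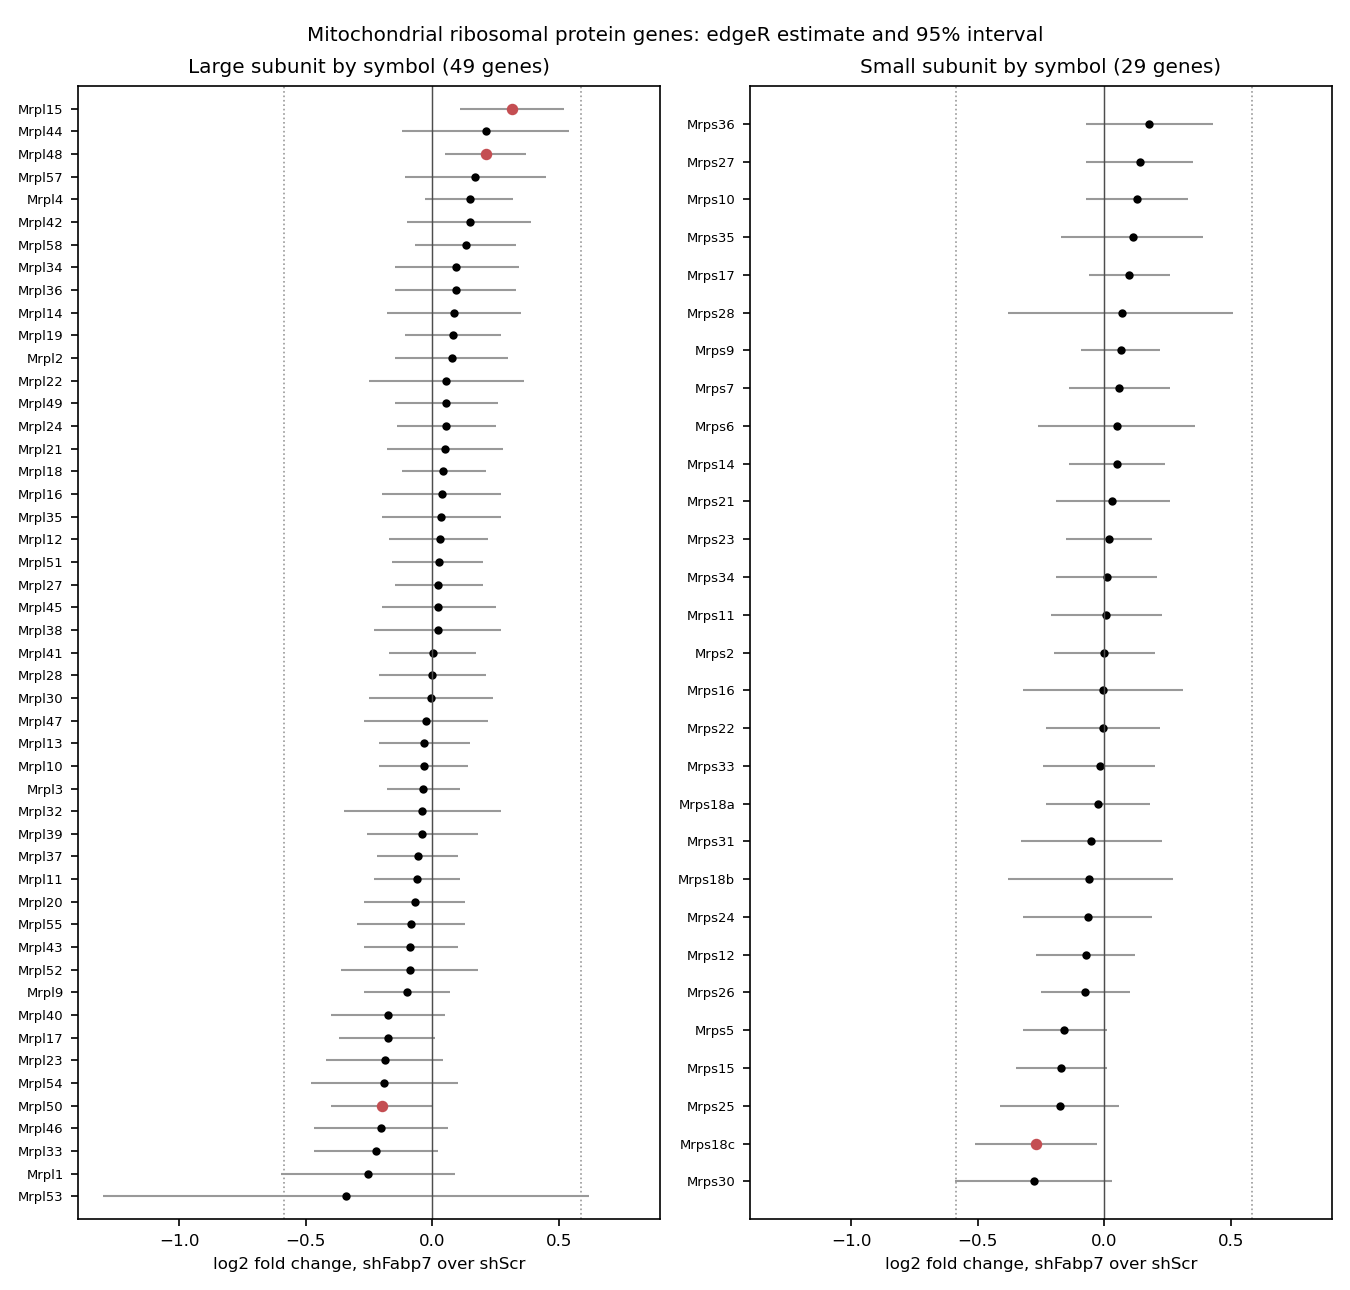
Log2 fold change (shFabp7 over shScr) of each of the 49 Mrpl genes (left) and 29 Mrps genes (right), ordered by value; lines are 95% intervals from edgeR, dotted lines mark a 1.5-fold change and red points an unadjusted p under 0.05. Points sit on both sides of 0 in both subunits, and 75 of 78 intervals stay between the dotted lines.

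Large subunit proteins with bacterial counterparts include some near the site of peptide bond formation and others in the stalks or by the exit tunnel. By place in the particle, the median log2 fold change of the 30 such genes was 0.010, 15 of them below 0 and 0 called. Mrpl15, whose bacterial homologue L15 is a core protein of the large subunit, lies at chr1:4773206-4785739 (minus strand). It had 25.6, 23.4 and 21.8 CPM in shFabp7 libraries, against 18.6, 19 and 19.3 CPM in shScr libraries. All 3 shFabp7 values were above every shScr value. Means were 23.6 ± 1.92 CPM in shFabp7 and 19 ± 0.332 CPM in shScr (SD, n = 3 each). The log2 fold change was 0.31 (SE 0.09). It had the lowest unadjusted p of the members in edgeR (0.00598), with an adjusted p of 0.15. Exact permutation of the 6 libraries gave a two-sided p of 0.1, the smallest that 3 against 3 allows. Mrpl27, a protein beside the peptidyl transferase centre, had 26.5, 26.4 and 24.8 CPM in shFabp7, against 24.4, 25.6 and 26.5 CPM in shScr, which overlap.

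Mrpl10, Mrpl11 and Mrpl12 build the stalk that brings translation factors to the particle, and Mrpl12 is also known to bind the mitochondrial RNA polymerase. Mrpl12 had 32.7, 36.6 and 30.5 CPM in shFabp7, against 33, 31.1 and 33.8 CPM in shScr. Mrpl10 had 32.8, 32.2 and 33.5 CPM in shFabp7, against 33.7, 31.5 and 35.8 CPM in shScr. Mrpl11 had 28.7, 29.5 and 28 CPM in shFabp7, against 28.7, 29.8 and 31.4 CPM in shScr. The groups overlapped for all 3 stalk genes, whose log2 fold changes were -0.03 (Mrpl10), -0.06 (Mrpl11) and 0.03 (Mrpl12), each with an SE of 0.08 to 0.09, and the signs of Mrpl10 and Mrpl12 turned with the libraries used.

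Of the other bacterial-type large subunit genes named here, 3 had lower means in shFabp7, none past the test. Mrpl17, a neighbour of the exit tunnel, had 20.9, 19.6 and 19.1 CPM in shFabp7, against 22.8, 21.4 and 23 CPM in shScr, a log2 fold change of -0.18 (SE 0.08). Its groups did not overlap, at an unadjusted p of 0.0658 in edgeR and an adjusted p of 0.323. Mrpl33, a small zinc-ribbon type protein in bacteria, had 16.4, 14 and 14.9 CPM in shFabp7, against 19, 15.9 and 18.1 CPM in shScr. Mrpl1, of the mobile L1 stalk, had 9.68, 13.7 and 12.9 CPM in shFabp7, against 12.3, 14.6 and 16.5 CPM in shScr. Both overlapped between the groups, with log2 fold changes of -0.22 (SE 0.11) for Mrpl33 and -0.26 (SE 0.16) for Mrpl1. Mrpl1 was at -0.12 without shFabp7 library 1, -0.15 without shScr library 3 and -0.45 with the excitatory neuron score, with which Mrpl33 was at -0.076.

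The median log2 fold change was -0.026 for the 21 large subunit genes classed as found only in mitochondria (Mrps18a among them), 11 of them below 0 and 0 called. Mrpl48, a protein of the central protuberance, lies at chr7:100545751-100608301 (minus strand). It had 63.4, 63.1 and 60.9 CPM in shFabp7, against 49.6, 58.1 and 54 CPM in shScr, and the groups did not overlap. Its means were 62.5 ± 1.41 CPM in shFabp7 and 53.9 ± 4.26 CPM in shScr (SD, n = 3 each). The log2 fold change was 0.21 (SE 0.07), and the adjusted p was 0.193 in edgeR. It was 0.085 with the excitatory neuron score as covariate and 0.10 without shScr libraries 1 and 3. Mrpl48 shared 8.68% of its exon bases with Rab6a on the opposite strand and 13.7% of its 50-base words with other transcripts. Mrpl50 was the lower counterpart, with 28.1, 32.9 and 32.7 CPM in shFabp7, against 37.2, 33.6 and 36.8 CPM in shScr. The groups did not overlap, and its log2 fold change was -0.20 (SE 0.09), with an adjusted p of 0.293 in edgeR, and -0.13 without shFabp7 library 1. Mrpl44, which has an RNase III-like fold, had 18, 17.6 and 13.3 CPM in shFabp7, against 14.9, 11.8 and 15.6 CPM in shScr, and the groups overlapped. Its log2 fold change was 0.21 (SE 0.15), 0.34 without shFabp7 library 3 and 0.10 without shScr library 2. Mrps30, named for the small subunit but placed in the large, had 9.44, 8.88 and 8.59 CPM in shFabp7, against 9.25, 11 and 12.4 CPM in shScr. Its groups overlapped through shScr library 1, and its log2 fold change of -0.28 (SE 0.14) was the lowest among the Mrps genes, and -0.18 without shScr library 3.

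Per length of the gene, the 3 most abundant genes of the large subunit were Mrpl41 at a mean of 39.3 RPKM (CPM per kilobase of the gene's exons, over 6 libraries), Mrpl42 at 38.5 and Mrpl27 at 26.1 RPKM. The 3 most abundant of the small subunit were Mrps21 at 34.9, Mrps12 at 23.3 and Mrps23 at 18.7 RPKM. Mrpl41 had 35.9, 35.5 and 33.4 CPM in shFabp7, against 35.1, 32.8 and 36.8 CPM in shScr, and means of 34.9 CPM in either group. Mrpl42 had 29.8, 26.5 and 24.6 CPM in shFabp7, against 22, 23.5 and 27.5 CPM in shScr, with overlap and a log2 fold change of 0.15 (SE 0.11), which was 0.068 without shFabp7 library 1, 0.079 without shScr library 1 and 0.24 without shScr library 3. The median level was 11.2 RPKM for large and 8.33 RPKM for small subunit genes. The lengths in the files cover all annotated exons, from 566 bp for Mrps16 to 8631 bp for Mrps35, which had only 1.98 RPKM.

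**Figure D2:**
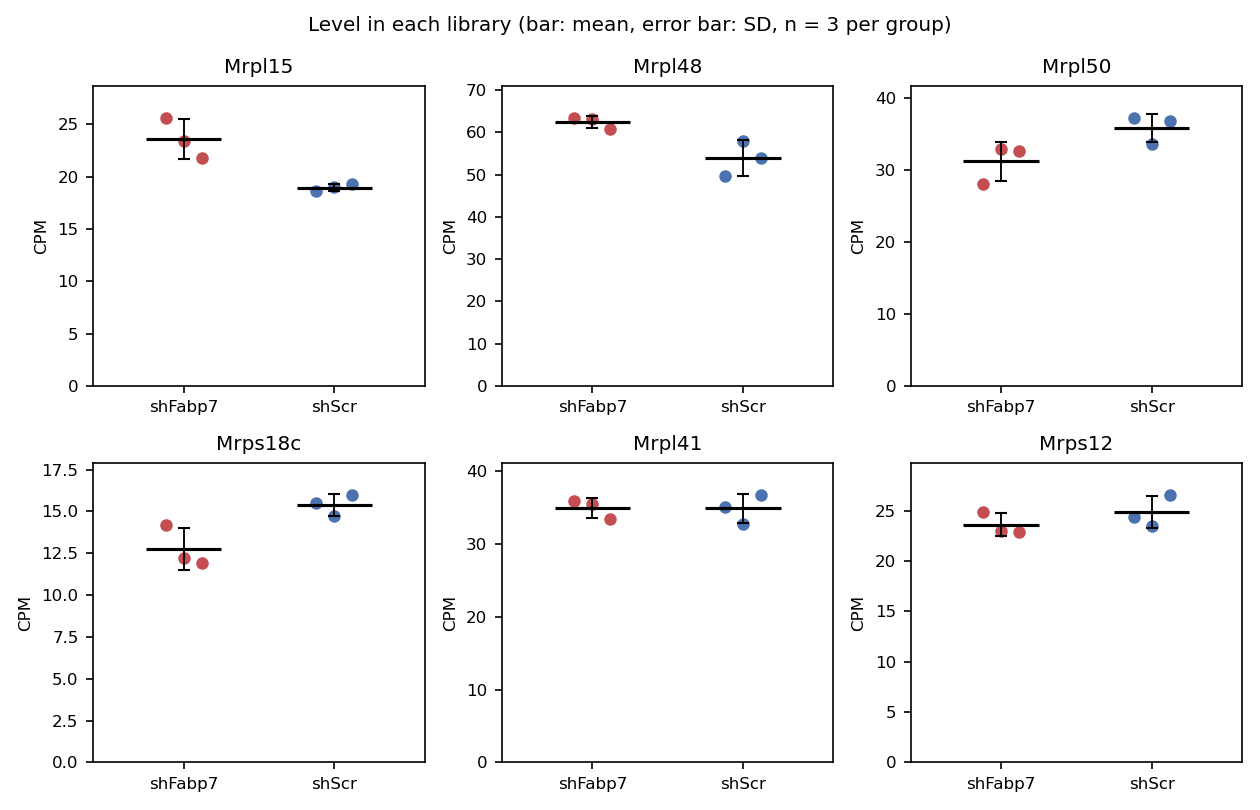
CPM in each library of 4 members with an unadjusted p under 0.05 (Mrpl15, Mrpl48, Mrpl50, Mrps18c) and of Mrpl41 and Mrps12, with shFabp7 left of shScr; bars are means and error bars SD over 3 libraries. Mrpl15 and Mrpl48 are higher and Mrpl50 and Mrps18c lower in all shFabp7 libraries, while the groups overlap for Mrpl41 and Mrps12.

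The small subunit reads the mRNA. The median log2 fold change was 0.020 for its 16 bacterial-type genes, 6 of them below 0. It was -0.011 for the 10 classed as found only in mitochondria (Mrps18b among them), 6 of them below 0. No gene of either class was called in edgeR, and 1 and 0 had an unadjusted p under 0.05. Mrps12, of the decoding centre, had 24.9, 23 and 22.9 CPM in shFabp7, against 24.4, 23.5 and 26.6 CPM in shScr. Mrps21 had 25, 26.6 and 26.5 CPM in shFabp7, against 23, 24.4 and 29.1 CPM in shScr. Mrps23 had 28, 29.4 and 30.5 CPM in shFabp7, against 30.2, 27.7 and 28.9 CPM in shScr. The groups overlapped for these 3 abundant genes, with log2 fold changes of -0.07 (Mrps12), 0.03 (Mrps21) and 0.02 (Mrps23), and each of the 3 signs turned in at least 1 alternative.

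Mammals have 3 paralogs of bacterial S18, of which Mrps18a and Mrps18b were classed above with the proteins found only in mitochondria. Mrps18c (chr5:100798627-100804471, plus strand) had 14.2, 12.2 and 11.9 CPM in shFabp7, against 15.5, 14.7 and 16 CPM in shScr. Its groups did not overlap, and the log2 fold change of -0.27 (SE 0.11) had an adjusted p of 0.258 in edgeR. Its exons shared 23.2% of their bases with Gm43511 on the same strand, so reads of either cannot be fully told apart. Mrps18b had 9.92, 12.6 and 9.34 CPM in shFabp7, against 9.80, 11.5 and 11.8 CPM in shScr. It shared 30.5% of its exon bases with Gm16279 on the opposite strand. Mrps18a, of the large subunit by place, had 34.1, 27.4 and 29.9 CPM in shFabp7, against 31, 30.5 and 31.5 CPM in shScr. Both overlapped, at log2 fold changes of -0.06 (SE 0.15) for Mrps18b and -0.03 (SE 0.09) for Mrps18a, and the difference between the paralogs was not tested.

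Mrps5, whose worm homologue is known for an effect on lifespan in Caenorhabditis elegans, had 39.9, 40.4 and 44.9 CPM in shFabp7, against 46.5, 45 and 48.2 CPM in shScr. The closest values, 44.9 and 45, nearly met, and the log2 fold change of -0.16 (SE 0.07) had an adjusted p of 0.316 in edgeR. Mrps15, an rRNA-binding protein in bacteria, had 21.8, 21.5 and 22.3 CPM in shFabp7, against 25.7, 24.5 and 23.5 CPM in shScr, and its log2 fold change of -0.17 (SE 0.08) had an adjusted p of 0.317. Both were lower in every shFabp7 library than in any shScr library. Mrps25, a protein of the mitochondrial kind, had 29.6, 24.1 and 25.2 CPM in shFabp7, against 31.4, 26.4 and 31.3 CPM in shScr, with overlap. Its log2 fold change was -0.17 (SE 0.11), and -0.27 without shFabp7 library 1. It shared 69.8% of its exon bases with Nr2c2 on the opposite strand. Mrps27 and Mrps36 had the highest log2 fold changes among the Mrps genes, 0.14 (SE 0.09) and 0.18 (SE 0.11), and Mrps27 was at 0.088 without shScr library 1. Mrps27 had 22.1, 21.2 and 20.3 CPM in shFabp7, against 17.7, 21 and 18.9 CPM in shScr. Mrps36, the gene outside the ribosome, had 13.9, 13.1 and 12 CPM in shFabp7, against 12.1, 10.7 and 11.6 CPM in shScr, and both overlapped between the groups. Mrps36 shared 17.3% of its 50-base words with other transcripts, chiefly its own pseudogenes.

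Library 1 of shFabp7 and library 3 of shScr each held the highest value of 22 members, while library 3 of shFabp7 held the lowest value of 23 and library 1 of shScr of 20. The mean log2 CPM over the 78 members was 4.40, 4.36 and 4.30 in shFabp7 libraries 1 to 3, against 4.35, 4.33 and 4.41 in shScr libraries 1 to 3. The means of the groups, 4.35 ± 0.051 and 4.36 ± 0.044 (SD, n = 3 each), differed by less than the spread within either group. Besides the named members, Mrpl23, Mrpl40, Mrpl54 and Mrpl55 were lower and Mrpl4, Mrps9 and Mrps10 higher in all shFabp7 than in all shScr libraries, each with an unadjusted p above 0.05 in edgeR. Members with a promoter match to any of the 3 motifs had a median log2 fold change of 0.01 (31 members), and those without a match had -0.01 (38 members).

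A total of 18 members (23.1%) had another tested gene starting head to head within 1000 bp, against 10.8% of all genes tested, at distances from 3 to 935 bp. Divergent genes whose starts overlap, such as Mrpl46 and Mrps11, were not counted. In 8 of the 18 pairs the log2 fold changes of member and neighbour had the same sign, and in 10 the opposite sign. By the positions given with the counts, Mrps18b starts 45 bp from Ppp1r10, a nuclear regulator of protein phosphatase 1. The promoter window printed above follows the RefSeq start of Mrps18b, which differs. That RefSeq start lies past the Ppp1r10 start given with the counts (35916434). By it the starts would overlap, and the pair would not have been counted. The Mrps18b start given with the counts (35916389) lies outside the printed window. Ppp1r10 had 59.9, 59.1 and 60 CPM in shFabp7, against 45.7, 44.2 and 45.1 CPM in shScr, a log2 fold change of 0.41 (SE 0.06) with an adjusted p of 0.0455 in edgeR. It rose, and it was the only one of the 18 neighbours to pass the threshold, while Mrps18b overlapped between the groups. The call was lost with the excitatory neuron score (0.0881) or sex (0.125) as covariate, and without shScr library 3 (0.105) or shFabp7 library 1 (0.107), 2 (0.323) or 3 (0.205), all as adjusted p in edgeR. Mrps12 shares its start region with Sars2, the mitochondrial seryl-tRNA synthetase, 172 bp away. Sars2 had 11.4, 12 and 11.4 CPM in shFabp7, against 11.3, 11.1 and 12 CPM in shScr. Neither gene of that pair differed beyond its spread. Mrps5 and Zfp661 start 128 bp apart, and Zfp661 had 10, 10.8 and 9.66 CPM in shFabp7, against 7.24, 7.71 and 8.73 CPM in shScr. Zfp661 lay higher and Mrps5 lower in shFabp7, neither past the threshold (adjusted p of 0.21 for Zfp661 in edgeR). Differences within pairs were not tested, and without the strand setting of the counting, reads of overlapping opposite-strand genes cannot be told apart.

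**Figure D3:**
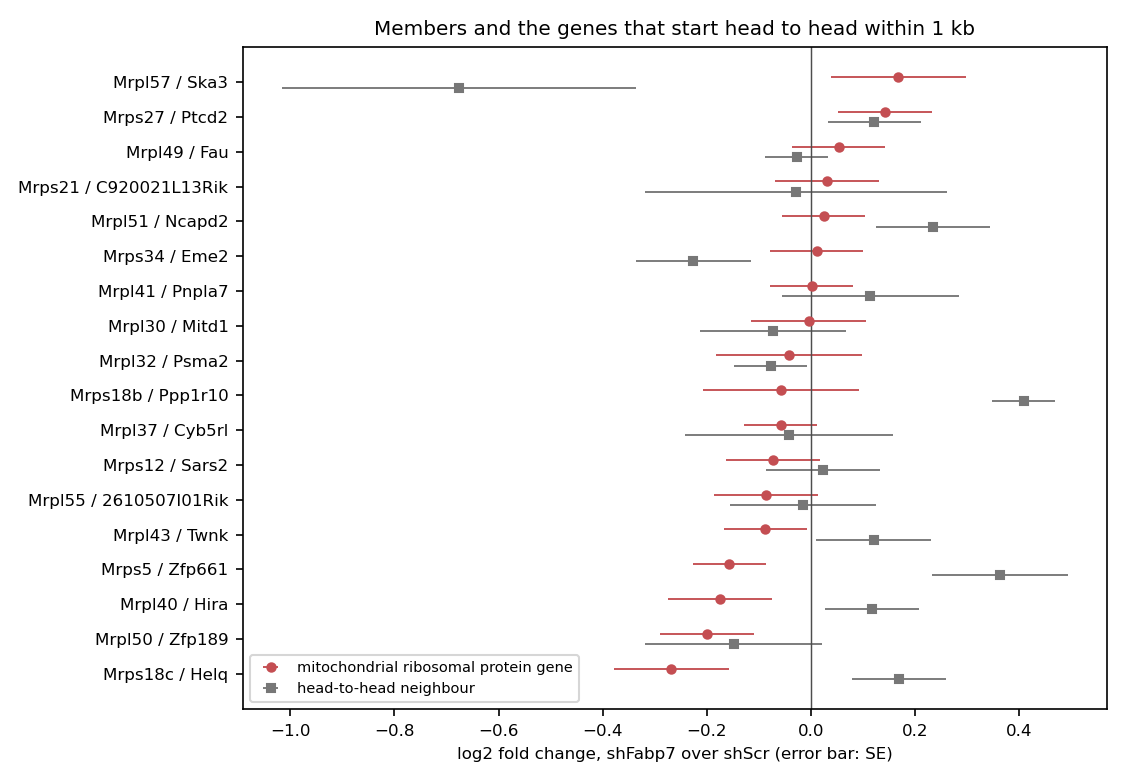
Log2 fold change (shFabp7 over shScr, error bars are SE) of the 18 members counted as starting head to head with another tested gene (red circles) and of that neighbour (grey squares). Ppp1r10 stands at 0.41 beside Mrps18b at -0.06, and signs are opposite in 10 of the 18 pairs.

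The other genes of mitochondrial translation also held no gene called in edgeR. Mitoribosomal proteins with other symbols (Dap3, Ptcd3, Chchd1, Aurkaip1 and Gadd45gip1) centred on a log2 fold change of -0.032 (median), 3 of 5 below 0 and 0 called. Dap3, a GTP-binding protein of the small subunit, averaged 62.2 ± 2.48 CPM in shFabp7 and 63.6 ± 4.11 CPM in shScr (SD, n = 3 each). Assembly and rRNA factors had a median of -0.025, with 0 of 26 called and 16 below 0, and Dhx30, an RNA helicase of mitochondrial RNA granules, averaged 119 CPM in either group. Translation factors had a median of -0.029, with 0 of 16 called and 10 below 0. Lrpprc, which stabilizes mitochondrial mRNAs, averaged 74.9 ± 4.29 CPM in shFabp7 and 82.3 ± 5.75 CPM in shScr (SD, n = 3 each). Its log2 fold change was -0.14 (SE 0.07). Guf1, also named by its level, was at -0.02 (SE 0.07).

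Mitochondrial tRNA synthetases had a median of 0.014, with 0 of 22 called and 10 below 0. Lars2, the mitochondrial leucyl-tRNA synthetase, had 273, 553 and 386 CPM in shFabp7, against 660, 1220 and 520 CPM in shScr. The groups overlapped, and its log2 fold change of -0.99 had an SE of 0.45 and an adjusted p of 0.364 in edgeR. Unlike for the members, sequence that Lars2 may share with other genes was not checked, so its level is uncertain. Gars, also named by its level, averaged 111 CPM in either group. Genes of mitochondrial DNA transcription, upkeep and their nuclear regulators had a median of 0.051, with 0 of 19 called and 7 below 0. Of these, Pprc1, Mgme1, Top1mt and Esrra had an unadjusted p under 0.05 in edgeR. That was 4 of 19, where 16.8% of all genes tested had one. Pprc1, Mgme1 and Top1mt were named after their values were seen. Pprc1, a coactivator related to PGC-1 that drives mitochondrial biogenesis genes, had a log2 fold change of -0.42 (SE 0.08), with an adjusted p of 0.0656 in edgeR and 0.0102 in DESeq2, which called no other gene of this list. The adjusted p of Pprc1 in edgeR was 0.275 with the excitatory neuron score and 0.18 with sex as covariate. With 1 library left out it ranged from 0.0309 (without shScr library 2) to 0.349 (without shFabp7 library 2). Mgme1, a nuclease of mitochondrial DNA, had a log2 fold change of 0.46. Esrra, a nuclear receptor that acts with PGC-1, had 0.21, and Top1mt, the mitochondrial topoisomerase, had -0.33.

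Of the other lists of mitochondrial translation (proteins with other symbols, assembly and rRNA factors, translation factors and tRNA synthetases), no gene had an unadjusted p under 0.05 in edgeR or was called in DESeq2. The products of the mitoribosome can be set beside it only as mRNAs here. Among the 13 mRNAs of mitochondrial DNA, the median log2 fold change was 0.064, 12 were above 0 and 0 were called in edgeR or DESeq2. The cytochrome oxidase gene mt-Co1 had 15800, 15900 and 15900 CPM in shFabp7, against 14300, 14500 and 14900 CPM in shScr, without overlap and with a log2 fold change of 0.12 (SE 0.06, adjusted p of 0.308 in edgeR). It was the only 1 of the 13 without overlap. For mt-Cytb, levels were 6750, 6830 and 7010 CPM in shFabp7, against 6630, 6350 and 6840 CPM in shScr. Those overlapped, at a log2 fold change of 0.05 (SE 0.06). The 76 tested nuclear subunits of oxidative phosphorylation had a median of -0.008, with 40 below 0 and 0 called in edgeR or DESeq2. At an unadjusted p under 0.05 in edgeR, 2 of the 76 were higher, where 8.44% of all genes tested were. The cytosolic ribosomal protein genes stood on 1 side of 0: 79 of 81 tested were below it, with a median of -0.122, 21 at an unadjusted p under 0.05, all lower, and 0 called in edgeR. Over all genes tested, 51.5% were below 0, and 8.32% were lower at an unadjusted p under 0.05. DESeq2 called 1 of them, Rps4l, named after its values were seen. The share below 0 was 79 of 81 with RLE or upper-quartile scaling too, 77 with the excitatory neuron score, and 69 without shScr libraries 1 and 3, where the median was -0.067. The part of the microglial and excitatory neuron markers in this was not otherwise tested. Over the 78 mitochondrial ribosomal genes, 38 were below 0. The difference between the lists was not tested, nor were reads shared between cytosolic ribosomal genes and their copies.

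**Figure D4:**
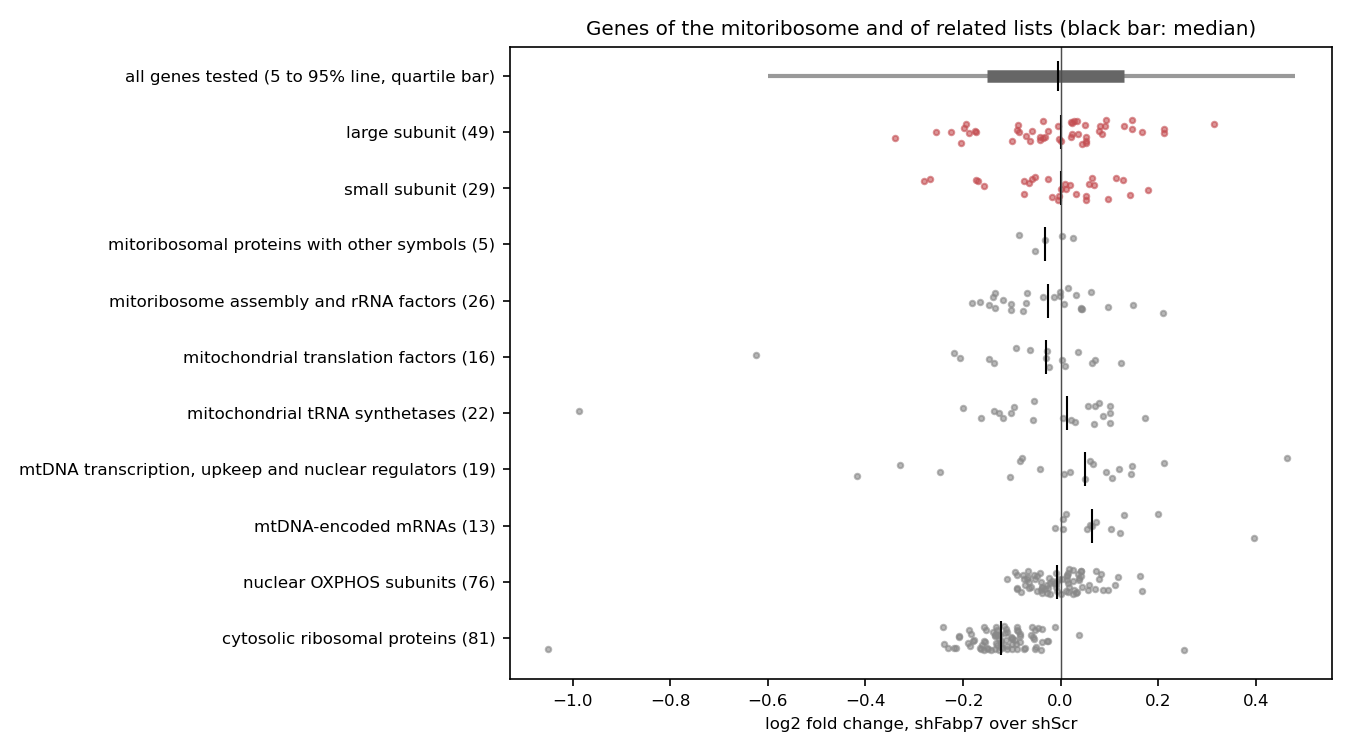
Log2 fold change (shFabp7 over shScr) of each gene of the large and small mitoribosomal subunit (red) and of 8 related lists (grey), with list sizes in brackets, black bars at the medians, and the 5 to 95% range and quartiles of all genes tested at the top. Both subunits centre on 0 (medians of 0.001 and 0.000), and the cytosolic ribosomal protein genes centre on -0.122.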

How the data were processed

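RNA of 6 libraries (0.5 µg of total RNA each, stranded mRNA kit, per the labels' protocols) was analysed as raw read counts per gene, laid out as featureCounts writes them, per the file headers. Subread 1.5.2, STAR 2.5.2b, Trimmomatic 0.36, DESeq2 and GRCm39 are listed in the submitters' processing notes without role or order. However, 91.4% of the 49056 gene IDs found in GENCODE M21 (65 of the 78 members) had the exact position given there, so GRCm38 was taken as the build of all coordinates. Strand use in counting was not given in the sources used here.

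Groups came from the sample titles. Genes were filtered with filterByExpr, scaled by TMM and tested with edgeR 4.0.16 (R 4.3.3, robust quasi-likelihood, group alone), checked on simulated counts. SE is the log2 fold change over the square root of F. Log2 CPM used a prior count of 2. Exon overlaps and shared 50-base words came from GENCODE M21.

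Members and lists were chosen with earlier results of these data known. Named members were, per subunit, the 5 with the smallest p, the 2 highest and 2 lowest log2 fold changes, the 3 highest RPKM, the stalk genes, the Mrps18 paralogs, Mrps30 and Mrps36. For each other list they were up to 4 genes past the threshold, or else the 2 highest by CPM, not all of which are printed. Neighbours and Mrpl45 were named after their values were seen. Alternatives were DESeq2 1.42.0, limma-voom (limma 3.58.1), other scalings and filters, a replicate block, sex or an excitatory neuron score as covariate, gene length, subunit by place, a threshold of 0.1, and libraries left out. Precision is limited by depth, 9 to 1237 reads per member and library.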

Additional observations from a re-analysis of the deposited data

How the results depend on the processing

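No member of either subunit was called at 0.05 under any other fit that kept more than 1 library per group. None was called in the main fit at a threshold of 0.1, which was not applied to the other fits. The lowest adjusted p of a member was 0.0602 in edgeR (Mrpl48, without shScr library 2), and Mrpl15 had 0.0806 in edgeR with no filter. The median log2 fold change ranged from -0.033 to 0.042 for the large and from -0.042 to 0.046 for the small subunit, where the mean log2 CPM of single libraries had SDs of 0.049 (shFabp7) and 0.045 (shScr) for the large and 0.057 (shFabp7) and 0.042 (shScr) for the small subunit. The number of genes called over all genes was 20, and it was 699 with DESeq2, 1617 with no filter, 109 with limma-voom, 38 with the excitatory neuron score, 7 with sex as covariate, 120 without shScr libraries 1 and 3, and 292 at a threshold of 0.1. With 1 library left out it ranged from 0 (without shFabp7 library 2 or 3) to 900 (without shScr library 2). Same-numbered libraries had deviations that correlated at 0.0808, 0.154 and 0.0573, and not every library correlated best with its own number. The labels give no shared litter or day, so the numbers were not taken as pairs. With the replicate number as a block, 629 genes were called, and 0 members.

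Among the 26 named members, 9 changed sign in some fit. With the excitatory neuron score, Mrpl10 was 0.001, Mrpl27 -0.033 and Mrps21 -0.065. With sex as covariate, Mrpl41 was -0.008, Mrps18a 0.005 and Mrps21 -0.028. With limma-voom, Mrpl41 was -0.016 and Mrps21 -0.000, and with no filter Mrpl41 was -0.003. Without shScr libraries 1 and 3, Mrpl10 was 0.061 and Mrps12 0.005. With 1 library left out, values ranged from -0.079 to 0.012 for Mrpl10, from -0.045 to 0.088 for Mrpl12, from -0.007 to 0.056 for Mrpl27, from -0.041 to 0.042 for Mrpl41, from -0.11 to 0.046 for Mrps18a, from -0.20 to 0.028 for Mrps18b, from -0.037 to 0.14 for Mrps21 and from -0.009 to 0.053 for Mrps23. Values also moved by over 1.5 times without a change of sign. With the excitatory neuron score, Mrpl53 was -0.98, Mrps30 -0.46, Mrpl50 -0.13, Mrpl44 0.34, Mrpl42 0.050, Mrps15 -0.11, Mrps25 -0.042 and Mrps27 0.013. Without shScr libraries 1 and 3, Mrpl53 was -0.81, Mrpl17 -0.11, Mrpl33 -0.073, Mrpl44 0.47, Mrpl50 -0.10, Mrps25 -0.005, Mrps27 0.013 and Mrps36 0.27. The cause of these changes was not tested. Depth limits Mrpl53 most, at 9 to 23 reads per library.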
